A study of Homo sapiens with 9 samples.

Results

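The 10 genes described here encode the core of the human microRNA pathway: the Microprocessor genes DROSHA and DGCR8, the precursor nuclease gene DICER1, the Argonaute genes AGO1, AGO2, AGO3 and AGO4, and the adaptor genes TNRC6A, TNRC6B and TNRC6C. They were chosen by gene symbol, with no threshold on their values, but with earlier results from the same 9 libraries in view. The values below are therefore a description, and each adjusted p sets a difference against the spread between libraries without being independent support. All 10 matched exactly 1 feature each of the 46846 in the deposited table, and all 10 were among the 16846 features with a mean of at least 10 that were tested. Polyadenylated RNA came from the human cell line MDA-MB-231, established from a triple-negative breast tumour. Cells received 10 nM pladienolide B for 6 h, 3.3 µM indisulam for 12 h, or DMSO, the solvent control, labelled 12 h, with 3 libraries in each group. Pladienolide B blocks SF3b, the part of the U2 snRNP that sits at intron branch sites. Indisulam acts as a molecular glue between the DCAF15 ligase and RBM39, a splicing factor that is then degraded. The drug and the time differ together between pladienolide B and either other group, so they cannot be told apart there. The labels call the libraries replicas and do not mention separate cultures. The p-values thus reflect variation between these libraries, which may be technical.

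MicroRNAs start as hairpins inside longer transcripts. The nuclease DROSHA and its RNA-binding partner DGCR8 cut the hairpin out in the nucleus, exportin 5 carries it to the cytoplasm, and DICER1 trims it to a short duplex. An Argonaute protein keeps one strand and pairs with target mRNAs mainly through the seed, bases 2 to 8 of the microRNA. TNRC6 proteins, also called GW182 proteins, then bind Argonaute and bring in the CCR4-NOT and PAN2-PAN3 deadenylases, which shorten the poly(A) tail. AGO2 is the Argonaute with established slicing activity in human cells.

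A pair of members carry microRNA genes inside their own features, and several transcripts described further on are hosts of well-known microRNAs. Matching RefSeq hairpins (GRCh38.p14) to the deposited hg38 coordinates placed 2 microRNA genes in DGCR8, 1 in DICER1 and none in the other members. Mature microRNAs carry no poly(A) tail and were not measured, so the sequences show only what these transcripts contain. They are given 5′ to 3′ with the seed in capitals. The first 3 lie in DGCR8 on the plus strand, miR-3618 at chr22:20085797-20085818, miR-1306-5p at chr22:20086072-20086093 and miR-1306-3p at chr22:20086112-20086129. The others lie in DICER1 on the minus strand, miR-3173-5p at chr14:95137961-95137982 and miR-3173-3p at chr14:95137923-95137944.
hsa-miR-3618: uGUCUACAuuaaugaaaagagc
hsa-miR-1306-5p: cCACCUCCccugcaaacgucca
hsa-miR-1306-3p: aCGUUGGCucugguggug
hsa-miR-3173-5p: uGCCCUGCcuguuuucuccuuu
hsa-miR-3173-3p: aAAGGAGGaaauaggcaggcca
No seed is shared among these 5.

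The next lines belong to host transcripts that differed after a drug: miR-15a-5p (chr13:50049167-50049188) and miR-16-5p (chr13:50049027-50049048) in DLEU2, miR-107 (chr10:89592756-89592778) in PANK1, miR-181a-5p (chr1:198859108-198859130) and miR-181b-5p (chr1:198858925-198858947) in MIR181A1HG and miR-34a-5p (chr1:9151735-9151756) in MIR34AHG, all on the minus strand. On the plus strand are miR-103a-3p (chr20:3917541-3917563) in PANK2, miR-146a-5p (chr5:160485372-160485393) in MIR3142HG and miR-26b-5p (chr2:218402657-218402677) in CTDSP1. Some of these mature forms also arise from other loci. The let-7a-5p line is shown because a list of let-7 targets is described at the end.
hsa-miR-15a-5p: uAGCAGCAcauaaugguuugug
hsa-miR-16-5p: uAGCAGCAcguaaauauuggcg
hsa-miR-103a-3p: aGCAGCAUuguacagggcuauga
hsa-miR-107: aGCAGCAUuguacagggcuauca
hsa-miR-181a-5p: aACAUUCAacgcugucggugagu
hsa-miR-181b-5p: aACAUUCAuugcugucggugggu
hsa-miR-34a-5p: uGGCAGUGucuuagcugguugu
hsa-miR-146a-5p: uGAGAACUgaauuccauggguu
hsa-miR-26b-5p: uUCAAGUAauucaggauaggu
hsa-let-7a-5p: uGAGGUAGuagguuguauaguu
Within these lines miR-15a-5p and miR-16-5p share the seed AGCAGCA, miR-103a-3p and miR-107 share GCAGCAU, and miR-181a-5p and miR-181b-5p share ACAUUCA.

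The libraries held 59312100 to 83910831 reads, and every value below is a deposited size-factor-normalised read number, called normalised reads. A count of 3 reads, the limit that 0 reads allows for counting error only, corresponded to 2.48 to 3.87 normalised reads. Mitochondrial reads made up 13.7 to 14% of the signal in pladienolide B libraries, 9.76 to 10.1% in indisulam libraries and 8.27 to 9.14% in DMSO libraries, and their part in the results was not tested. Of 6 markers expected in the line all had means of at least 10, although SPARC was low, at 36.9 ± 6.79 in DMSO. Of 8 markers expected to be low or absent, ESR1, PGR and FOXA1 had means under 10, while KRT8 (46440.5 ± 1774 in DMSO) and ERBB2 (5682 ± 93.1) were plainly present. Of 5 leukocyte markers 1 had a mean under 10, and their summed level was 117 to 203 with pladienolide B, 73.0 to 97.1 with indisulam and 77.4 to 92.4 in DMSO. The 3 endothelial markers summed to 39.1 to 63.2, 62.7 to 93.4 and 54.0 to 75.4 in the same groups, and the part of either list in the results was not tested. In bulk RNA, fewer cells with a transcript and less transcript per cell cannot be told apart.

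With pladienolide B 6 of the 10 genes were lower than in DMSO, namely TNRC6C, DGCR8, AGO4, AGO2, DROSHA and DICER1, and none was called higher. With indisulam AGO4 and AGO3 were higher and none was called lower. AGO4 is the member called in opposite directions by the drugs. For comparison, 35.5% of all tested features were called lower and 34.3% higher with pladienolide B, and 14.5% higher and 12.4% lower with indisulam. That balance depends on the scaling: pladienolide B gave 5776 higher and 5976 lower as deposited and 2733 higher and 9086 lower with the same total per library, and indisulam gave 2437 higher and 2095 lower as deposited, 1832 higher and 2441 lower with TMM scaling and 1714 higher and 2544 lower with the same total.

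**Figure D1:**
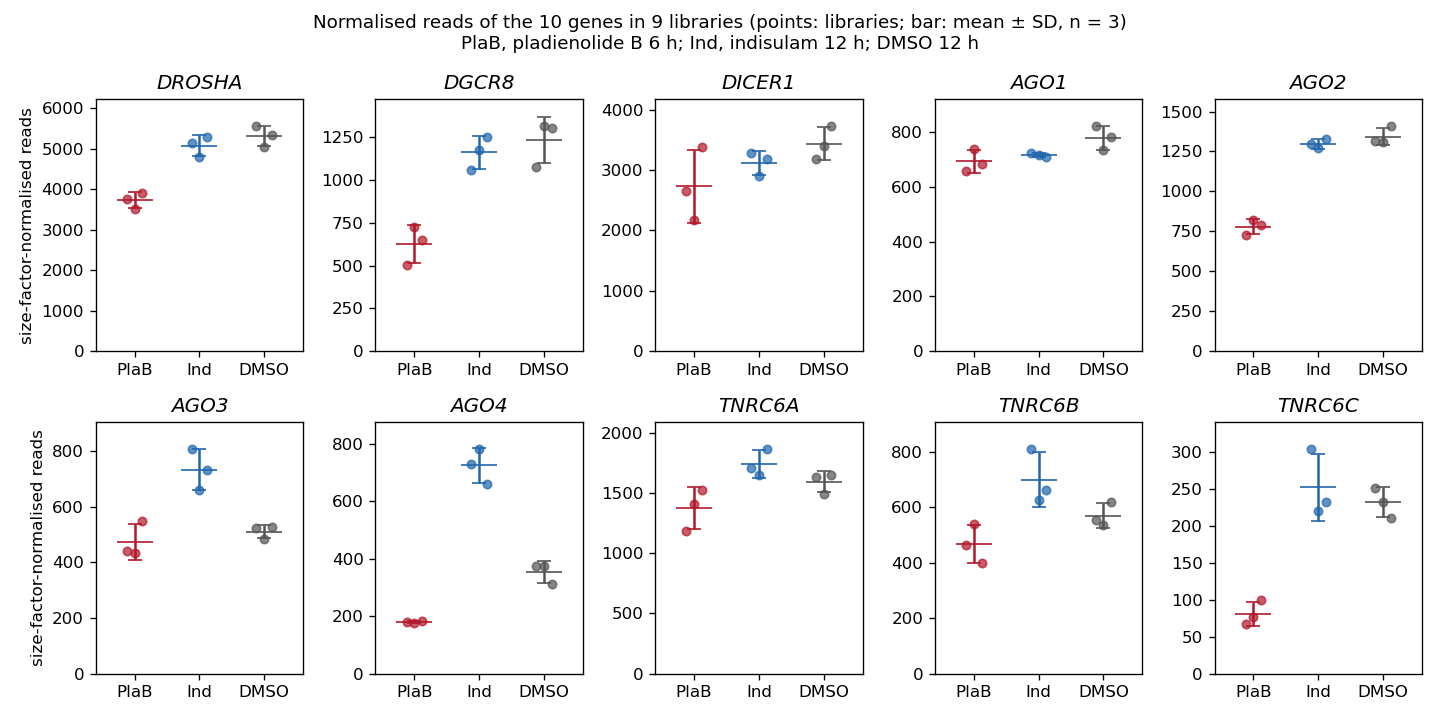
Normalised reads (y axes, from 0) of the 10 genes in each library, by group. Points are libraries and bars are mean ± SD (n = 3). AGO4 stands at 181, 175 and 183 with pladienolide B, 729, 782 and 660.4 with indisulam and 374, 375 and 309.8 in DMSO.

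DROSHA, the nuclease of the Microprocessor (GSHG0035280, hg38 chr5:31374795-31532093, minus strand), had 3761, 3509 and 3911 in the pladienolide B libraries, 5142, 4791 and 5294 in the indisulam libraries and 5558, 5050.3 and 5332 in the DMSO libraries. The pladienolide B libraries lay below all others, and the indisulam libraries overlapped DMSO. Its log2 fold change was -0.51 ± 0.07 with pladienolide B against DMSO (± is the SE beside log2 values; limma adjusted p = 9.26e-06), and the level fell by 29.9%. With indisulam it was -0.07 ± 0.07 (95% interval -0.21 to 0.08; limma adjusted p = 0.5).

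DGCR8, whose protein grips the hairpin for DROSHA (GSHG0028406, hg38 chr22:20080241-20111875, plus strand), had 504, 724 and 651 in the pladienolide B libraries, 1057, 1176 and 1253 in the indisulam libraries and 1079, 1315 and 1307 in the DMSO libraries. All 3 pladienolide B values were below the lowest DMSO value, while the indisulam values overlapped those of DMSO. The level fell by 49.6% with pladienolide B (-0.99 ± 0.13, limma adjusted p = 1.14e-05), and the log2 difference with indisulam was -0.08 ± 0.13 (95% interval -0.36 to 0.20; limma adjusted p = 0.679). The DGCR8 feature shares 1 base with TRMT2A, a tRNA methyltransferase gene with 749, 765 and 794 normalised reads with pladienolide B, 1183, 1125 and 1224 with indisulam and 1570.02, 1485 and 1546 in DMSO. Within a library the log2 ratio of DROSHA to DGCR8 was 2.90, 2.28 and 2.59 with pladienolide B, 2.28, 2.03 and 2.08 with indisulam and 2.36, 1.94 and 2.03 in DMSO. The groups overlapped, with a difference of 0.48 ± 0.22 for pladienolide B (exact two-sided permutation p = 0.2) and 0.02 ± 0.15 for indisulam (exact two-sided permutation p = 0.9).

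DICER1, which cuts the exported precursor (GSHG0013269, hg38 chr14:95086228-95158010, minus strand), had 2649.9, 2172 and 3377 in the pladienolide B libraries, 3281, 2899 and 3179.7 in the indisulam libraries and 3186, 3393 and 3727 in the DMSO libraries. It was the most variable member with pladienolide B, with a coefficient of variation of 22.2%, and its highest library there lay inside the DMSO range. The level fell by 21.6% with pladienolide B (-0.35 ± 0.12, limma adjusted p = 0.022). The call did not hold when DMSO replicate 2 was left out (limma adjusted p = 0.0522), nor without DMSO replicate 3 (0.0878), pladienolide B replicate 1 (0.0517) or pladienolide B replicate 2 (0.104), and its log2 value without the last was -0.20. With indisulam the log2 difference was -0.14 ± 0.12 (95% interval -0.41 to 0.13; limma adjusted p = 0.452). The antisense transcript DICER1-AS1, which overlaps it, had 12.2 ± 5.32 normalised reads with pladienolide B, 57.5 ± 4.70 with indisulam and 47.7 ± 11.2 in DMSO (SD, n = 3 each). Without a stated strand setting of the counting, reads of such overlapping genes cannot be told apart.

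AGO4 (GSHG0000422, hg38 chr1:35807636-35857890, plus strand), an Argonaute with no known slicing activity, had 181, 175 and 183 in the pladienolide B libraries, 729, 782 and 660.4 in the indisulam libraries and 374, 375 and 309.8 in the DMSO libraries. No group overlapped another, and indisulam stood highest and pladienolide B lowest. The level with indisulam was 2.05 times that in DMSO on the fitted scale (1.03 ± 0.12, limma adjusted p = 5.17e-05), and with pladienolide B it fell by 48.8% (-0.97 ± 0.12, limma adjusted p = 6.63e-06).

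AGO3 (GSHG0000424, hg38 chr1:35930718-36072500, plus strand), another of the Argonaute paralogs, had 439, 435 and 549 in the pladienolide B libraries, 808, 659.98 and 732 in the indisulam libraries and 522, 482 and 526 in the DMSO libraries. All indisulam values exceeded all DMSO values, and the pladienolide B values overlapped DMSO. The log2 fold change was 0.52 ± 0.12 with indisulam (limma adjusted p = 0.0054) and -0.11 ± 0.12 with pladienolide B (95% interval -0.36 to 0.14; limma adjusted p = 0.415, and 0.00114 with equal library totals, where it was called lower).

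AGO2, the slicing Argonaute (GSHG0042901, hg38 chr8:140520156-140635633, minus strand), had 725, 819 and 789 in the pladienolide B libraries, 1294, 1269 and 1329 in the indisulam libraries and 1314, 1309.6 and 1408 in the DMSO libraries. Pladienolide B libraries lay apart from the rest, and indisulam overlapped DMSO. The level fell by 42.1% with pladienolide B (-0.79 ± 0.08, limma adjusted p = 7.85e-07), against a log2 difference of -0.05 ± 0.08 with indisulam (95% interval -0.22 to 0.12; limma adjusted p = 0.688).

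AGO1 (GSHG0000423, hg38 chr1:35869761-35930532, plus strand), a paralog that also works through TNRC6 proteins, had 657, 740.3 and 684 in the pladienolide B libraries, 724, 719 and 708 in the indisulam libraries and 823, 735 and 783 in the DMSO libraries. The indisulam values were all just below DMSO and the pladienolide B values overlapped it. Neither drug's difference passed the test as deposited, at -0.12 ± 0.09 with indisulam (95% interval -0.31 to 0.07; limma adjusted p = 0.348) and -0.17 ± 0.09 with pladienolide B (95% interval -0.36 to 0.02; limma adjusted p = 0.104). With pladienolide B it was called lower with TMM scaling (log2 -0.25, limma adjusted p = 0.0249) and with equal library totals (log2 -0.64, limma adjusted p = 1.98e-05). AGO4, AGO1 and AGO3 are neighbours on chromosome 1 in that order on the plus strand, with 11870 bases between the AGO4 and AGO1 features and 185 bases between AGO1 and AGO3. The 3 neighbours thus had log2 differences of 1.03, -0.12 and 0.52 with indisulam and -0.97, -0.17 and -0.11 with pladienolide B.

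Ratios within a library do not depend on the scaling. The log2 ratio of AGO4 to AGO2 was -2.00, -2.22 and -2.10 with pladienolide B, -0.83, -0.70 and -1.01 with indisulam and -1.81, -1.80 and -2.18 in DMSO. Indisulam libraries stood 1.08 ± 0.15 above DMSO without overlap (exact two-sided permutation p = 0.1), whereas with pladienolide B, where both genes fell, the ratio overlapped DMSO (-0.18 ± 0.14, exact two-sided permutation p = 0.3). The AGO3 to AGO2 ratio was -0.72, -0.91 and -0.52 with pladienolide B, -0.68, -0.94 and -0.86 with indisulam and -1.33, -1.44 and -1.42 in DMSO. It was higher than in DMSO with both drugs and did not overlap it, by 0.68 ± 0.12 with pladienolide B and 0.57 ± 0.08 with indisulam (exact two-sided permutation p = 0.1 each). The AGO1 to AGO2 ratio differed from DMSO by 0.62 ± 0.06 with pladienolide B (exact two-sided permutation p = 0.1) and by -0.07 ± 0.06 with indisulam (exact two-sided permutation p = 0.5). With 3 libraries against 3 the smallest p is 0.1, so no ratio can pass 0.05, and over the 14 ratio tests the lowest Benjamini-Hochberg adjusted p of these exact tests was 0.28.

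**Figure D2:**
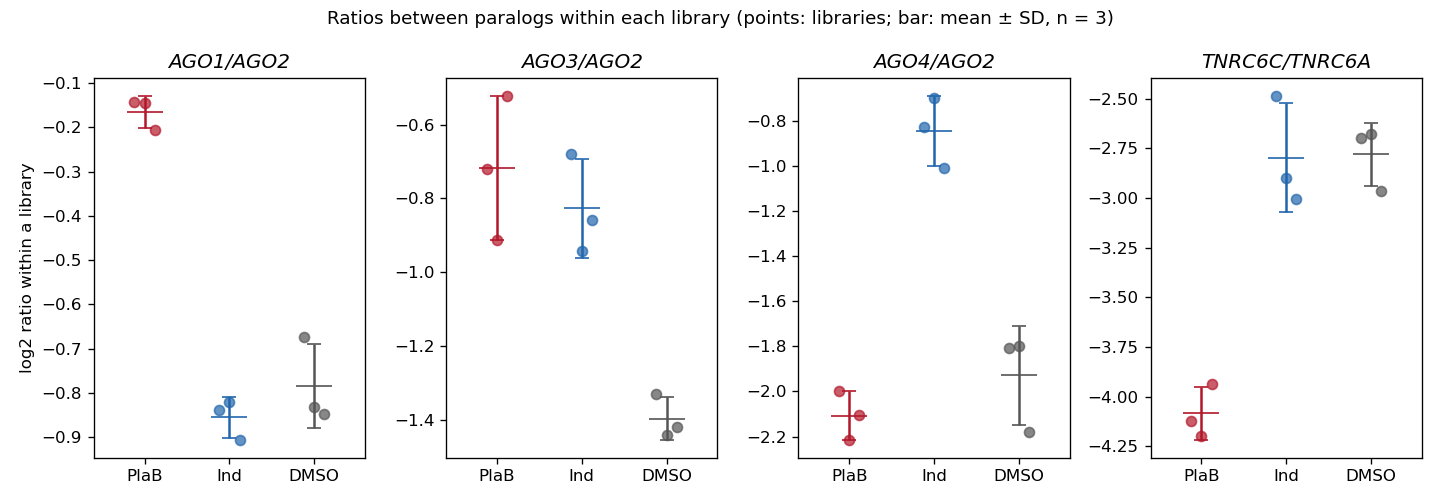
log2 ratios between paralogs within each library (y axes, not starting at 0), by group. Points are libraries and bars are mean ± SD (n = 3). AGO4/AGO2 is high with indisulam only among these groups, AGO1/AGO2 with pladienolide B, AGO3/AGO2 with both drugs, and TNRC6C/TNRC6A is low with pladienolide B.

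TNRC6C (GSHG0018617, hg38 chr17:78004237-78108835, plus strand), the adaptor gene with the lowest level of the 3, had 67.2, 76.1 and 98.9 in the pladienolide B libraries, 304, 219.99 and 232 in the indisulam libraries and 251, 233 and 211 in the DMSO libraries. The pladienolide B libraries held under 100 normalised reads each and did not overlap the others, while indisulam overlapped DMSO. The level fell by 65.2% with pladienolide B (-1.52 ± 0.18, limma adjusted p = 5.23e-06), and with indisulam the log2 difference was 0.11 ± 0.18 (95% interval -0.29 to 0.51; limma adjusted p = 0.707). The TNRC6C feature lies wholly within that of TMC6, a more abundant gene with 1534, 1726 and 1526 normalised reads with pladienolide B, 1481, 1456 and 1295 with indisulam and 2205, 1997 and 1863 in DMSO, and shared reads cannot be told apart.

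TNRC6B (GSHG0028662, hg38 chr22:40044834-40335808, plus strand), another adaptor of the family, had 463, 538 and 399.6 in the pladienolide B libraries, 811, 626 and 664 in the indisulam libraries and 554, 536 and 619.5 in the DMSO libraries. The indisulam values were all above DMSO, and 1 pladienolide B library lay within the DMSO range. Neither difference passed the test as deposited, at 0.29 ± 0.13 with indisulam (95% interval 0.01 to 0.57; limma adjusted p = 0.12) and -0.29 ± 0.13 with pladienolide B (95% interval -0.58 to -0.01; limma adjusted p = 0.059). The pladienolide B difference was called lower in 5 of 19 alternatives, with limma adjusted p = 0.0441 with a replicate block, 0.0226 with TMM scaling, 0.00014 with equal library totals, 0.0482 without indisulam replicate 1 and 0.0152 without pladienolide B replicate 2.

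TNRC6A (GSHG0016241, hg38 chr16:24534204-24826218, plus strand), the founding GW182 gene, had 1186, 1414 and 1527 in the pladienolide B libraries, 1706, 1647 and 1869 in the indisulam libraries and 1638, 1494 and 1655 in the DMSO libraries. Each drug's values overlapped those of DMSO, and its log2 differences from DMSO were 0.13 ± 0.10 with indisulam (95% interval -0.08 to 0.33; limma adjusted p = 0.367) and -0.22 ± 0.10 with pladienolide B (95% interval -0.43 to -0.01; limma adjusted p = 0.0549). The pladienolide B difference was called lower in 4 of 19 alternatives, with limma adjusted p = 0.0178 with a replicate block, 0.0146 with TMM scaling, 3.99e-05 with equal library totals and 0.0138 without pladienolide B replicate 3. The feature also spans RBBP6, a more abundant gene that ends at 24572863, before the GENCODE start of TNRC6A at 24610209. RBBP6 had 2155, 1711 and 2315 with pladienolide B, 5254, 5175 and 5609 with indisulam and 6363, 6005 and 7232 in DMSO. Its level fell by 68.6% with pladienolide B. Shared reads cannot be told apart in the TNRC6A values or in the ratios to TNRC6A below. Within a library the log2 ratio of TNRC6C to TNRC6A was -4.12, -4.20 and -3.93 with pladienolide B, -2.48, -2.90 and -3.01 with indisulam and -2.70, -2.68 and -2.97 in DMSO. It differed from DMSO by -1.30 ± 0.12 with pladienolide B without overlap (exact two-sided permutation p = 0.1) and by -0.02 ± 0.18 with indisulam (exact two-sided permutation p = 0.9). The TNRC6B to TNRC6A ratio differed by -0.07 ± 0.19 and 0.17 ± 0.13 in the same order (exact two-sided permutation p = 1 and 0.3), and DICER1 to DROSHA by 0.16 ± 0.16 and -0.07 ± 0.09 (exact two-sided permutation p = 0.4 and 0.5).

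**Figure D3:**
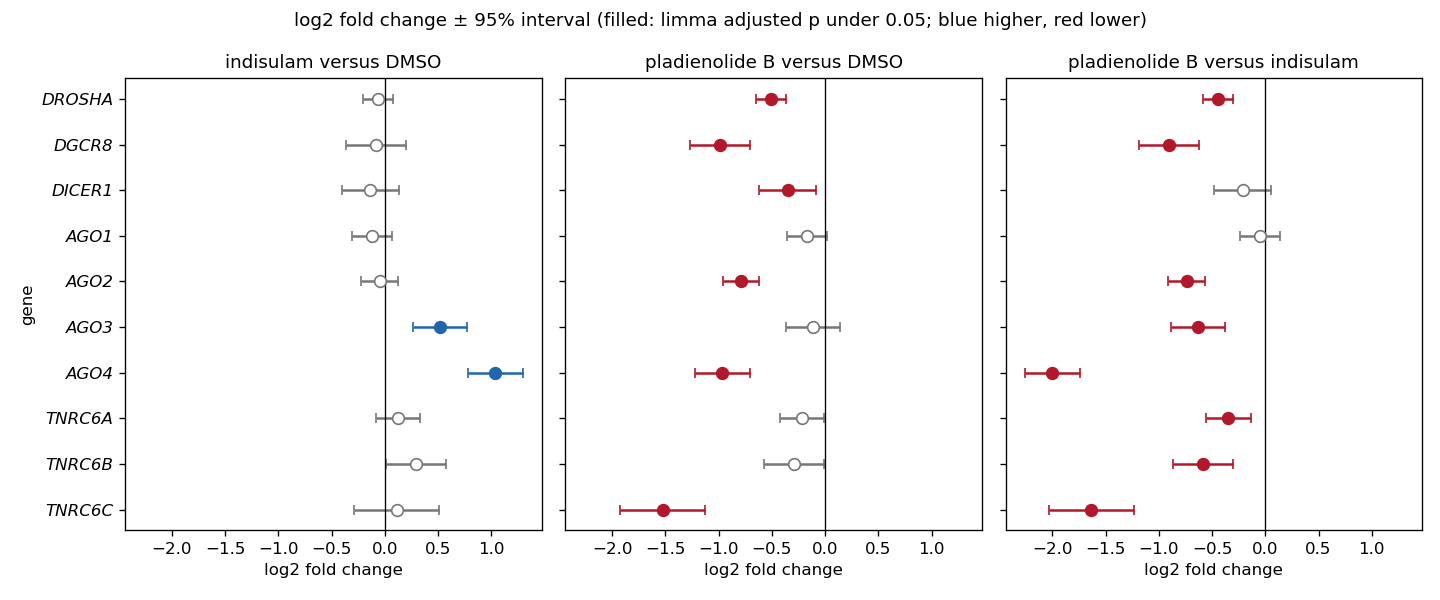
log2 fold change with its 95% interval for the 10 genes in each comparison. Filled points have a limma adjusted p under 0.05 (blue higher, red lower) and open points do not. AGO4 lies at 1.03 with indisulam and -0.97 with pladienolide B, and all 10 points lie below 0 in the right panel.

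Counted together, 2 of 10 genes were higher with indisulam, 0 lower and 8 not called, and indisulam and DMSO libraries stood apart without overlap in 4 genes, against 48.4% of all tested features. For the 0 lower by limma, an unadjusted p under 0.05 also gave 0, as did edgeR and DESeq2 on recovered reads. The median log2 difference was 0.03 over the 10 genes and 0.05 over all tested features. With pladienolide B 0 were higher, 6 lower and 4 not called, and 5 did not overlap DMSO, against 71.8% of all features. Here too unadjusted limma, edgeR and DESeq2 gave 0 higher. The median was -0.43 over the 10 genes and -0.01 over all tested features. With every library scaled to the same total, which shifts the median of all features by -0.47, all 10 were called lower, as were 53.9% of all tested features, against 35.5% as deposited. TMM scaling called 9 lower, all but AGO3, and 38.2% of all features. These comparisons share the DMSO libraries.

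Set directly against each other, pladienolide B libraries were lower than indisulam libraries in 8 of the 10 genes by limma and higher in 0, also 0 by unadjusted limma, edgeR and DESeq2, while 35.6% of all tested features were called lower and 34.7% higher. This contrast is the difference between the drugs' effects, since both use the same DMSO libraries, and drug and time differ together in it. The widest gap was in AGO4 (-2.00 ± 0.12, limma adjusted p = 5.80e-09), followed by TNRC6C (-1.63 ± 0.18, limma adjusted p = 2.64e-06), DGCR8 (-0.90 ± 0.13, limma adjusted p = 2.60e-05) and AGO2 (-0.74 ± 0.08, limma adjusted p = 1.53e-06). AGO3 (-0.63 ± 0.12, limma adjusted p = 0.000274), TNRC6B (-0.59 ± 0.13, limma adjusted p = 0.0012), DROSHA (-0.45 ± 0.07, limma adjusted p = 3.40e-05) and TNRC6A (-0.35 ± 0.10, limma adjusted p = 0.00543) were also lower. DICER1 did not pass, with a 95% interval of -0.48 to 0.06 (limma adjusted p = 0.142, against 0.0392 with a replicate block, 0.0014 with equal library totals and 0.00365 without pladienolide B replicate 3), nor did AGO1, with an interval of -0.24 to 0.14 (limma adjusted p = 0.635, against 0.000333 with equal library totals). Equal totals called 50.4% of all features lower in this contrast. In 8 genes the groups did not overlap, against 71.8% of all features. The median log2 difference was -0.61 over the 10 genes and 0.01 over all tested features.

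Per kilobase of the longest coding transcript, the order of levels changed in the middle of the range. With pladienolide B the order ran DROSHA (703 ± 38.2 normalised reads per kb, SD, n = 3), DICER1, TNRC6A, DGCR8, AGO2, AGO1, TNRC6B, AGO4, AGO3 and TNRC6C (8.29 ± 1.68). There TNRC6A and DGCR8, AGO2 and AGO1, and the run from TNRC6B to AGO3 overlapped between neighbours. With indisulam AGO4 stood just above AGO2, at 102 ± 8.54 per kb against 89.0 ± 2.06, and only TNRC6B and AGO3 overlapped as neighbours. In DMSO AGO4 stood lower, at 49.6 ± 5.29 per kb, below AGO2 at 92.2 ± 3.82 and AGO1 at 56.9 ± 3.19. DROSHA led in every group, with 957 ± 48.6 per kb with indisulam and 1002 ± 47.9 in DMSO, and TNRC6C was last in every group, with 25.9 ± 4.67 with indisulam and 23.8 ± 2.08 in DMSO, where it overlapped AGO3. Values per kb depend on the transcript chosen, and these used GENCODE release 29 lengths. Some deposited features differ in bounds from the GENCODE genes. The TNRC6C feature starts at 78004237, inside a GENCODE gene that starts at 77959240. The features of TNRC6A and DROSHA start at 24534204 and 31374795, before GENCODE starts of 24610209 and 31400497. The part of these bounds in the order was not tested.

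The list counts here and below stand beside 34.3% higher and 35.5% lower of all tested features with pladienolide B. With indisulam those shares were 14.5% and 12.4%. Genes that act around the Microprocessor split in both directions. Of 21 cofactors tested, 11 rose and 8 fell with pladienolide B (median log2 difference 0.19; with the same total per library 4 higher and 12 lower, median -0.28), and 5 rose and 6 fell with indisulam (median 0.08; 8 rose with a replicate block). With pladienolide B the splicing regulators SRSF3 (1.53 ± 0.05, limma adjusted p = 4.70e-11) and HNRNPA1 (1.15 ± 0.05, limma adjusted p = 2.50e-10), which also bind microRNA primary transcripts, rose most. SAFB, a scaffold protein that assists cutting of weak hairpins (-1.52 ± 0.06, limma adjusted p = 1.47e-10), and METTL14, part of the m6A methyltransferase (-1.03 ± 0.16, limma adjusted p = 4.38e-05), fell most. With indisulam HP1BP3 (0.60 ± 0.09, limma adjusted p = 0.000279) and the cap-binding gene NCBP2 (0.43 ± 0.06, limma adjusted p = 0.000349) rose most. Its cap-binding partner NCBP1 (-0.65 ± 0.07, limma adjusted p = 4.60e-05) and SRRT, the ARS2 gene (-0.59 ± 0.08, limma adjusted p = 0.0001), fell most.

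Among 8 genes of precursor export, Dicer partners and precursor tailing that were tested, 1 rose and 5 fell with pladienolide B (median -0.35; 1 higher and 7 lower with equal library totals, median -0.82), and 2 rose and 1 fell with indisulam (median 0.05, and -0.01 with equal library totals). TUT7, which adds uridines to precursors, had 1468, 1024 and 1352 in the pladienolide B libraries, 4276, 3566 and 3910.1 in the indisulam libraries and 2481, 2088 and 2461 in the DMSO libraries. TENT2, a poly(A) polymerase that extends small RNAs, had 734, 469 and 599.96 in the pladienolide B libraries, 2927, 2911 and 3170.3 in the indisulam libraries and 1954, 1948 and 2025 in the DMSO libraries. In both genes the 3 groups stood apart, indisulam above DMSO and pladienolide B below it, which is the order AGO4 shows. Of all tested features, 48.4% did not overlap DMSO with indisulam and 71.8% with pladienolide B. DDX17, ADAR, TSNAX, CUL3, LIMD1 and CNOT6L, from other lists described here, showed the same order. TUT7 rose with indisulam (0.74 ± 0.12, limma adjusted p = 0.000622) and fell with pladienolide B (-0.88 ± 0.12, limma adjusted p = 1.72e-05), as did TENT2 (0.60 ± 0.12, limma adjusted p = 0.0029 with indisulam and -1.74 ± 0.12, limma adjusted p = 2.61e-08 with pladienolide B). RAN, the GTPase of exportin transport, was the 1 gene that rose with pladienolide B (0.91 ± 0.05, limma adjusted p = 5.88e-09). XPO5, exportin 5 itself, was the 1 that fell with indisulam (-0.63 ± 0.09, limma adjusted p = 0.000186). It also fell with pladienolide B (-0.54 ± 0.09, limma adjusted p = 6.69e-05). XPO5 stood at 4401 ± 494 with indisulam, 4647 ± 402 with pladienolide B and 6763 ± 299 in DMSO (SD, n = 3 each).

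The list of Argonaute loading chaperones had 11 tested genes, including TSN (translin) and its partner TSNAX, which are not chaperones. Of the 11, 9 rose, TSN among them, and 1 fell with pladienolide B (median 0.32), beside 34.3% of all tested features higher. Equal library totals gave 3 higher and 6 lower (median -0.15). CDC37 (0.70 ± 0.07, limma adjusted p = 5.23e-07) and HSP90AB1 (0.69 ± 0.05, limma adjusted p = 6.19e-08), the HSP90 co-chaperone and HSP90 beta, rose most, and TSNAX, the translin partner, fell (-0.29 ± 0.06, limma adjusted p = 0.000893). With indisulam 2 rose and 1 fell (median 0.06; 1 higher and 2 lower with the same total per library, and 4 higher and 2 lower with a replicate block). These were TSNAX (0.43 ± 0.06, limma adjusted p = 0.000289) and DNAJA2 (0.18 ± 0.06, limma adjusted p = 0.0477), both higher, and FKBP4 (-0.20 ± 0.06, limma adjusted p = 0.0397). DNAJA2 was not called with TMM scaling (limma adjusted p = 0.134) or equal library totals (0.138), and neither DNAJA2 nor FKBP4 was called with no filter on low values or when any 1 indisulam or DMSO library was left out.

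Of 12 genes that modify or turn over Argonautes, 3 rose and 6 fell with pladienolide B (median -0.38; 0 higher and 9 lower with the same total per library). The LIM proteins LIMD1 (-2.17 ± 0.06, limma adjusted p = 1.84e-11) and AJUBA (-1.97 ± 0.05, limma adjusted p = 9.18e-12), which link Argonaute to the cap complex, fell most. LIMD1 had 1419.8, 1563 and 1635 in the pladienolide B libraries, 8078, 7685 and 8249 in the indisulam libraries and 6918, 6941 and 6908 in the DMSO libraries, so the pladienolide B libraries stood far below both other groups. P4HA1, the prolyl hydroxylase of AGO2, rose (0.43 ± 0.10, limma adjusted p = 0.00132). PPP6C, the phosphatase that acts on Argonaute with ANKRD52, also rose (0.34 ± 0.06, limma adjusted p = 0.000187). The P4HA1 and PPP6C values were both below 0 with the same total per library. ANKRD52 itself fell with pladienolide B (-0.86 ± 0.07, limma adjusted p = 1.80e-07). With indisulam 3 rose and 2 fell (median 0.00; 2 higher and 5 lower with the same total per library, 2 higher and 4 lower with TMM scaling, and 5 lower with a replicate block). IPO8 (0.31 ± 0.08, limma adjusted p = 0.0109) and CUL3 (0.26 ± 0.06, limma adjusted p = 0.00396) rose most, and ZSWIM8, a ubiquitin ligase adaptor in target-directed microRNA decay that overlaps the more abundant CAMK2G (-0.58 ± 0.12, limma adjusted p = 0.0033), and ANKRD52 (-0.33 ± 0.07, limma adjusted p = 0.00527) fell. IPO8 was not called without DMSO replicate 2 (limma adjusted p = 0.0568). LIMD1 was also called higher with indisulam (0.21 ± 0.06, limma adjusted p = 0.0278). With pladienolide B CUL3 fell (-0.65 ± 0.06, limma adjusted p = 1.74e-07), while IPO8 rose (0.30 ± 0.08, limma adjusted p = 0.00387).

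The silencing machinery that TNRC6 proteins recruit had 18 of 27 genes lower and 2 higher with pladienolide B (median -0.67), beside 35.5% of all tested features lower. TMM scaling gave 2 higher and 20 lower (38.2% of all features lower), and equal library totals gave 1 higher and 26 lower (median -1.14; 53.9% of all features lower). CNOT2, a core CCR4-NOT subunit, had 714, 598 and 749.6 in the pladienolide B libraries, 2592, 2537 and 2658 in the indisulam libraries and 2716, 2439 and 2541 in the DMSO libraries (-1.90 ± 0.09, limma adjusted p = 4.92e-10). PAN2, a deadenylase subunit that overlaps the more abundant CNPY2, had 333, 279 and 298 in the pladienolide B libraries, 647, 701 and 611 in the indisulam libraries and 916, 838 and 876 in the DMSO libraries (-1.53 ± 0.10, limma adjusted p = 1.61e-08 with pladienolide B, and -0.43 ± 0.10, limma adjusted p = 0.00818 with indisulam). Both stood well below DMSO in every pladienolide B library, while CNOT2 values with indisulam overlapped DMSO. The poly(A)-binding protein gene PABPC1 (0.66 ± 0.05, limma adjusted p = 1.12e-07) and the deadenylase CNOT7 (0.24 ± 0.06, limma adjusted p = 0.00175) rose. With the same total per library CNOT7 was instead called lower (-0.23, limma adjusted p = 0.00303). With indisulam 8 of 27 rose and 2 fell (median 0.03). Equal library totals gave 6 higher and 4 lower (median -0.03), and a replicate block gave 10 higher and 4 lower. The rises were led by the decapping factor PATL1 (0.70 ± 0.06, limma adjusted p = 8.13e-06) and CNOT6L (0.61 ± 0.13, limma adjusted p = 0.00332), while CNOT10 fell (-0.46 ± 0.09, limma adjusted p = 0.00164).

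**Figure D4:**
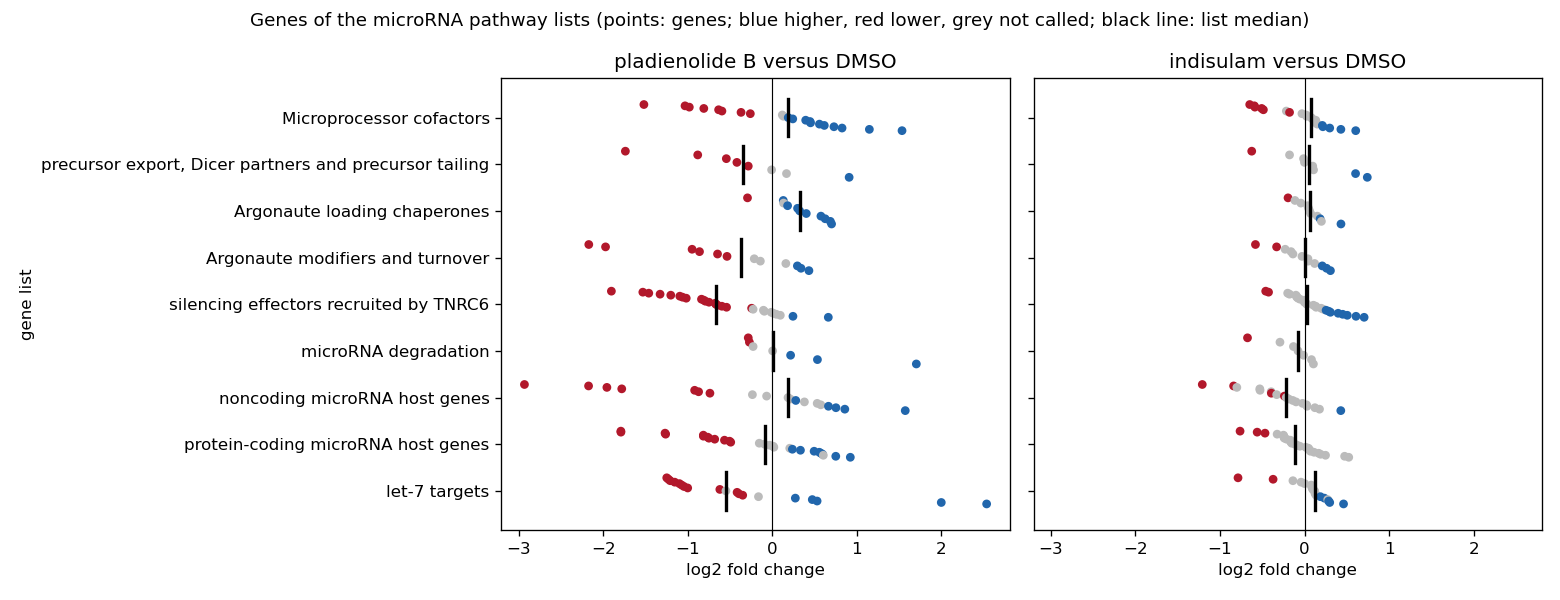
log2 fold change of each tested gene (points) in 9 lists around the microRNA pathway, for pladienolide B (left) and indisulam (right) against DMSO. Blue points were called higher and red lower by limma, grey were not called, and the black line is the list median, at -0.67 with pladienolide B and 0.03 with indisulam for the silencing effectors.

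Of 7 genes of microRNA degradation, 3 rose and 2 fell with pladienolide B (median 0.00; 1 higher and 5 lower with equal library totals, median -0.47), and 0 rose and 1 fell with indisulam (median -0.08). For the 0, limma at an unadjusted p under 0.05, edgeR and DESeq2 also gave 0. ZC3H12A, the nuclease Regnase-1, rose most with pladienolide B (1.70 ± 0.18, limma adjusted p = 1.33e-06), followed by SND1, the Tudor-SN nuclease (0.53 ± 0.06, limma adjusted p = 3.04e-06). DIS3L2, which degrades uridylated precursors (-0.28 ± 0.10, limma adjusted p = 0.0241), and PNPT1 (-0.27 ± 0.09, limma adjusted p = 0.013) fell. SND1 was not called with equal library totals (limma adjusted p = 0.291). PNPT1 was not called without DMSO replicate 3 (0.0604), nor DIS3L2 without DMSO replicate 3 (0.0918), pladienolide B replicate 2 (0.0507) or pladienolide B replicate 3 (0.0967), by limma adjusted p. PARN, a poly(A) ribonuclease, was the gene that fell with indisulam (-0.68 ± 0.10, limma adjusted p = 0.000372).

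Transcripts that host microRNAs moved both ways. Among 19 noncoding hosts tested, 5 rose and 7 fell with pladienolide B (median 0.19; 3 higher and 10 lower with equal library totals, median -0.29), and 1 rose and 4 fell with indisulam (median -0.22). DLEU2, the host of the miR-15a and miR-16 hairpins, had 1133, 932 and 956 in the pladienolide B libraries, 329.7, 409 and 409.6 in the indisulam libraries and 908, 853 and 885 in the DMSO libraries. Its indisulam libraries lay below those of both other groups (-1.21 ± 0.11, limma adjusted p = 8.58e-06); it overlaps the more abundant DLEU1 and TRIM13 features. MIR3142HG, the host of miR-146a, had 56.2, 25.8 and 35.5 in the pladienolide B libraries, 176, 194 and 191 in the indisulam libraries and 129.9, 218 and 178 in the DMSO libraries. It fell with pladienolide B (-2.17 ± 0.27, limma adjusted p = 5.93e-06), as did MIR34AHG, the host of miR-34a, where 2 of 3 libraries were near or under the value of 3 reads (4.01, 15.5 and 2.54 with pladienolide B and 58.6, 48.7 and 42.8 in DMSO; -2.93 ± 0.53, limma adjusted p = 0.000205). MIR181A1HG, the host of miR-181a and miR-181b, was higher with pladienolide B, at 55.2, 51.6 and 40.6 against 14.2, 11.6 and 23.4 in DMSO (1.57 ± 0.37, limma adjusted p = 0.00187). MIR222HG rose with pladienolide B (0.86 ± 0.13, limma adjusted p = 3.54e-05) and fell with indisulam (-0.84 ± 0.13, limma adjusted p = 0.000366), and GAS5 rose with indisulam (0.43 ± 0.10, limma adjusted p = 0.00646), but no RefSeq microRNA hairpin lies within either deposited feature.

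Of 27 protein-coding hosts, 8 rose and 12 fell with pladienolide B (median -0.09; 1 higher and 19 lower with the same total per library), and 0 rose and 3 fell with indisulam (median -0.11; 0 higher and 5 lower with TMM scaling and with equal library totals, and 2 higher and 8 lower with a replicate block). For that 0, limma at an unadjusted p under 0.05 gave 2, edgeR 0 and DESeq2 1. The pantothenate kinase genes PANK2 and PANK1 carry miR-103a and miR-107, which share a seed. PANK2 fell to 966 ± 48.8 with indisulam, against 1639 ± 27.2 in DMSO (SD, n = 3 each; -0.76 ± 0.07, limma adjusted p = 1.35e-05); it overlaps the more abundant RNF24. PANK1 had 33.1, 56.7 and 45.7 in the pladienolide B libraries, 202, 227 and 243 in the indisulam libraries and 167, 186 and 120.2 in the DMSO libraries, and fell with pladienolide B (-1.79 ± 0.23, limma adjusted p = 8.31e-06). CTDSP1, a phosphatase gene that hosts miR-26b, fell as far (-1.79 ± 0.10, limma adjusted p = 2.71e-09), and EGFL7, the host of miR-126, rose most (0.92 ± 0.09, limma adjusted p = 7.81e-07), ahead of COPZ2, the host of miR-152 (0.75 ± 0.19, limma adjusted p = 0.00293; not called with equal library totals, limma adjusted p = 0.208). SLIT2, the host of miR-218, fell with indisulam (-0.56 ± 0.10, limma adjusted p = 0.00131).

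Among 19 tested let-7 targets, a list that includes DICER1, 5 rose and 12 fell with pladienolide B (median -0.55). The same total per library gave 2 higher and 15 lower. With indisulam 5 rose and 2 fell (median 0.12, against 0.08 with TMM scaling and 0.06 with equal library totals). MYC had 33704, 34385 and 31557 in the pladienolide B libraries, 6969.6, 6910.1 and 7048 in the indisulam libraries and 5639, 5923 and 5628 in the DMSO libraries and rose most with pladienolide B (2.53 ± 0.05, limma adjusted p = 3.76e-12), followed by IL6 (2.00 ± 0.17, limma adjusted p = 1.45e-07). IGF2BP3, an RNA-binding oncofetal gene, fell with both drugs, to 261 ± 51.9 with pladienolide B and 356 ± 13.6 with indisulam, against 616 ± 43.9 in DMSO (SD, n = 3 each; -1.25 ± 0.14, limma adjusted p = 1.90e-06 and -0.79 ± 0.14, limma adjusted p = 0.000953), and overlaps the more abundant MALSU1. ARID3B fell with pladienolide B (-1.23 ± 0.16, limma adjusted p = 1.32e-05), and HMGA2 fell with indisulam (-0.37 ± 0.07, limma adjusted p = 0.00165), where TGFBR1 (0.46 ± 0.07, limma adjusted p = 0.000283) and IGF2BP2 (0.30 ± 0.07, limma adjusted p = 0.00703) rose most. LIN28B, which blocks let-7 maturation, had 0 reads in all 9 libraries.

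A list of 10 PIWI and other germ-line small RNA genes served as a germ-line reference. PIWIL3, DDX4 and TDRD1 had 0 reads in every library, and 3 of 10 genes reached the level for testing. The list was not silent. Its summed level was 1527 to 1973 with pladienolide B, 1437 to 1677 with indisulam and 1166 to 1490 in DMSO. With pladienolide B MAEL (0.53 ± 0.21, limma adjusted p = 0.0364) and PLD6 (0.45 ± 0.12, limma adjusted p = 0.00359) rose and PIWIL4 fell (-2.16 ± 0.37, limma adjusted p = 0.000147), and MAEL overlaps the more abundant ILDR2, while PLD6 was at -0.03 with the same total per library. MAEL was not called with TMM scaling (limma adjusted p = 0.0684), with equal library totals (0.793) or with no filter on low values (0.0707), nor in 4 of the fits that left out 1 library (0.0583 without DMSO replicate 1, 0.131 without DMSO replicate 2, 0.11 without pladienolide B replicate 1 and 0.105 without pladienolide B replicate 2). The genes of this list called higher thus numbered 2 as deposited, 1 with TMM scaling and 0 with equal library totals. With indisulam 0 rose and 0 fell, where limma at an unadjusted p under 0.05 gave 1 higher, PLD6 (0.28 ± 0.12, limma adjusted p = 0.0884, and 0.00783 with a replicate block), and edgeR and DESeq2 gave 0.

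The genes whose pattern over the 9 libraries lay closest to AGO2, by Euclidean distance of log2 values centred on each gene, were USP22 (0.122), EXOSC3 (0.127) and TBC1D14 (0.147). The closest member was DGCR8, at 0.447. Those closest to DICER1 were NBN (0.235), RASAL2 (0.276) and SMCHD1 (0.28), with DROSHA the closest member at 0.503.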

How the data were processed

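PolyA RNA was sequenced from 9 MDA-MB-231 libraries made with a stranded kit, according to the labels. STAR 2.7.5a, SAMtools, Picard, FastQC, DESeq2 and hg38 appear in the submitters' processing notes. How reads were counted, and whether by strand, is not stated in the sources used here. Each deposited signal value is a feature's reads scaled by the authors with DESeq2 size factors, per the name of the table and the processing notes. Divided by the worth of 1 read, all values (100%) came out whole within 0.01, so whole reads were recovered; in pladienolide B replicate 1 that value is 1.00, where this check is weak.

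Values were tested as log2(value + 1) with limma 3.58.1 under R 4.3.3, which understates changes of low genes, with a mean per group, all 9 libraries, a variance trend, two-sided tests and a Benjamini-Hochberg threshold of 0.05 over 16846 features with a mean of at least 10. Alternatives were pseudocounts, filters, scalings, edgeR 4.0.16 and DESeq2 1.42.0 on recovered reads, the compared groups alone, a replicate block, and leaving out each library. On recovered reads edgeR called 2535 higher and 2181 lower with indisulam, and 5830 and 5917 with pladienolide B. The fit was tested on simulated data. No libraries of a group agreed within sampling noise (lowest chi-square per gene 8.63).

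Members and lists (196 of 204 list entries matched) were chosen with earlier results of these data known. Named genes are all members and, per list and drug, up to 2 called genes per direction with the largest change, or the highest mean where none is called. For AGO2 and DICER1 the 3 nearest genes were added. Of 59 named list genes, 6 overlap a more abundant feature.

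Whether replicate numbers pair the libraries was checked by correlating deviations from group means between same-numbered libraries. Over 12332 features with a mean of at least 100, tried first, correlations were 0.105 to 0.376, all over 0.1. Over all 16846, added after that result was seen, they were 0.0027 to 0.128. The checks give different answers, so pairing is unsettled. Blocked values stand beside the calls of named genes that they change. List counts are given with the block where the relative change was larger, and smaller changes are not all printed. With indisulam, for example, noncoding hosts lower went from 4 to 6 and let-7 targets higher from 5 to 7.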

Additional observations from a re-analysis of the deposited data

How the results depend on the processing

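The AGO3 and AGO4 rises with indisulam kept their calls in all 19 alternatives. With pladienolide B the calls of DROSHA, DGCR8, AGO2, AGO4 and TNRC6C also held in all 19. With the same total per library, pladienolide B against DMSO gave 2733 features higher and 9086 lower, and 10 members lower, and against indisulam 3014 features higher; P4HA1 (-0.0398), PPP6C (-0.13), CNOT7 (-0.23) and PLD6 (-0.0255) changed sign. The construction of that scaling shifts all genes together, since totals were highest with pladienolide B. Leaving out single libraries gave 1565 to 2982 features higher with indisulam against DMSO, with 1565 without indisulam replicate 3 and 1620 without DMSO replicate 2; the cause was not tested. For TNRC6C with indisulam the log2 value ran from -0.0324 (without indisulam replicate 1, a change of sign of an uncalled value) to 0.20. Members lower with pladienolide B numbered 5 to 7 in these fits against DMSO, beside 5581 to 5967 features lower. Against indisulam, members lower numbered 8 to 9, beside 5625 to 5973 features lower. With the replicate block, 3548 features were higher and 2739 lower with indisulam, and 6081 higher and 6248 lower with pladienolide B, where 8 members were lower, against 6 members and 5976 features lower without the block; TNRC6A, TNRC6B and, between the drugs, DICER1 became called, and no other member's call changed. Depth of 59312100 reads or more left no member near the value of 3 reads.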
